A study of Arabidopsis thaliana with 4 samples.

Results

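The 9 genes SPL2, SPL3, SPL4, SPL5, SPL6, SPL9, SPL10, SPL11 and SPL15 encode SQUAMOSA promoter-binding-like transcription factors of Arabidopsis thaliana whose transcripts are targeted by the microRNA miR156. They were chosen from that family by name, out of 27444 protein-coding nuclear genes, with earlier results of these data known. SPL13A and SPL13B, which are also miR156 targets, are not among them. All summits inside or within 3000 bp of each of the 9 genes were taken from a deposited ChIP-seq peak list. This gave 12 distinct summits of 7470. The symbol SPL2 names 2 genes in the annotation, and the squamosa promoter-binding-like gene, AT5G43270, was used. The study looked for potential targets of the transcription factor TCP4 in whole seedlings. In all groups seeds were held at 4 °C for 3 days, given 3 to 4 h of white light and then grown in darkness for 4 days. Chromatin of wild-type seedlings (Col) and of seedlings overexpressing TCP4 (mTCP4) was precipitated with an anti-Myc antibody, and each genotype also had an input library. The sources used here name neither the promoter driving TCP4 nor the number of lines, and the sites are those listed where TCP4 was overexpressed. Each of the 4 groups had 1 library, so no value below has a replicate error and no test was made.

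SPL proteins bind DNA through a zinc-containing SBP domain and drive the passage from the juvenile to the adult vegetative phase and on to flowering, which is called the age pathway. In young plants miR156 is abundant and holds SPL transcripts low. As the plant ages miR156 declines, SPL levels rise, and SPL proteins activate miR172, which in turn limits AP2-like floral repressors, and MADS-box flowering genes. TCP4 is itself under a microRNA, miR319, and acts in leaf growth and maturation. The SPL genes fall into related subgroups. SPL3, SPL4 and SPL5 encode short proteins linked to flowering, SPL2, SPL10 and SPL11 act in leaf shape and shoot maturation, SPL9 and SPL15 control leaf initiation rate and phase change, and SPL6 has a role in immunity.

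Summits lay at 7 of the 9 SPL genes, SPL2, SPL3, SPL4, SPL5, SPL6, SPL10 and SPL11, and none lay within 3000 bp of SPL9 or SPL15. Over all protein-coding genes the share with a summit inside or within 3000 bp was 32.8%, and it was 34.2% among the 18165 genes of 1072 to 3594 bp, the length range of the 9. Since the genes were chosen with these summits known, the count describes them and is no evidence of more frequent binding. SPL2 and SPL5 had 3 summits each and SPL3 had 2, where 13.8% of all protein-coding genes had 2 or more and 5.36% had 3 or more. The other 4 genes had 1 summit each. No summit was within 3000 bp of more than 1 of the 9 genes. The count of 7 was the same with q of 1e-05 or lower, where 31.7% of all protein-coding genes had a summit, and with 1 summit per numbered peak (32.6%). It was 6 within 1000 bp (19.7% of all), 8 within 5000 bp (43.9%), 6 with the summits in the upper 50% by fold (19.7%), 6 when a summit counted only for the protein-coding gene nearest to it (17.7%) and 4 with summits at the lowest control level (6.9%).

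**Figure D1:**
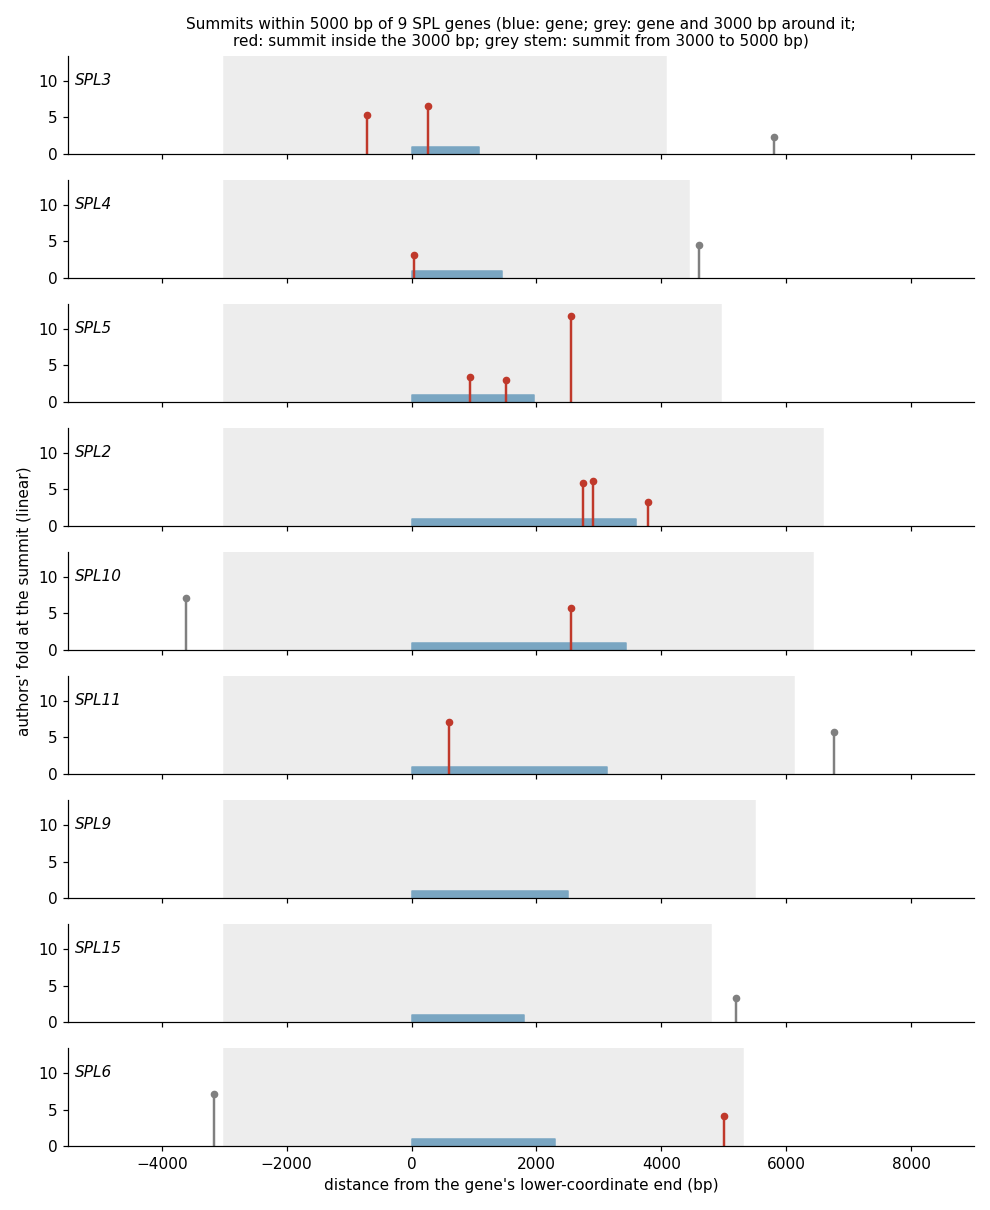
Summits within 5000 bp of each of the 9 SPL genes. The x axis is the distance in bp from the lower-coordinate end of the gene, the y axis is the authors' fold at the summit on a linear scale, the blue block is the gene, and the grey field reaches 3000 bp beyond it. Red stems are the 12 summits within 3000 bp, most of them over the gene block, and grey stems lie farther out. The row of SPL9 is empty and that of SPL15 holds only a grey stem.

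Of the 12 summits, 8 lay inside the SPL gene itself, in 6 of the 9 genes. In all, 6.75% of protein-coding genes held a summit inside, and 6.98% of those in the same length range. SPL2 and SPL5 held 2 inside, against 1.26% of all protein-coding genes with 2 or more. In each of these genes the 2 inside summits belonged to 1 numbered peak. Counted as pairs of a gene and a summit within 3000 bp, 66.7% of the 12 SPL pairs were inside the gene, where 14.9% of 15133 pairs were inside over all protein-coding genes. SPL5 lies wholly within the annotated gene AT3G15260, so its inside summits belong to both genes. In the other 5 genes the inside summit lay in no further protein-coding gene. The 8 inside summits were 34 to 933 bp from the nearest gene end, with a median of 644 bp, and the median over all inside pairs was 239 bp. The latter median covers genes of all lengths, so the 2 medians are not matched for gene length. The annotation gives no strand, so the start and the end of a gene were not told apart, and no distinction between exon, intron and UTR was made.

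Fold is the authors' ratio of pileup to control level at each summit. The pileup is a scaled number of fragments, in steps of 0.737 for each fragment, and the bounds after each fold are exact 95% Poisson intervals of the fragments with the control level held fixed. In whole seedlings a lower pileup can come from fewer cells with the protein at the site or from less of it per cell, and these cannot be told apart. Summit positions are those of the deposited list in build TAIR10.

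Among the short SPL genes, SPL5 carried the highest fold of the 9 genes and SPL4 the lowest. SPL5 (AT3G15270) had a summit at position 5142917 of chromosome 3, 594 bp outside its higher-coordinate end, with 239 fragments, a pileup of 176.12, a control level of 14.0 and a fold of 11.8 (10.4 to 13.4). This summit was the 23rd highest of 7470 by fold and the 86th by pileup. It lay 44 bp outside AT3G15260, nearer than to SPL5, and 1048 bp from AT3G15280. The 2 summits inside SPL5 were much lower. At position 5141298 the fold was 3.45 (2.85 to 4.15) with 111 fragments, and at 5141872 it was 3.04 (2.31 to 3.92) with 56 fragments. Their intervals overlapped each other and neither reached that of the outer summit, which was 1619 and 1045 bp away from them in turn.

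SPL3 (AT2G33810), a direct activator of floral meristem genes, had a summit inside and another outside. The inside summit, at position 14305257 of chromosome 2 and 256 bp from the lower-coordinate end, had 147 fragments and a fold of 6.59 (5.57 to 7.73). The outer summit, at 14304290 and 711 bp beyond the same end, had 123 fragments and a fold of 5.39 (4.49 to 6.42). The summits were 967 bp apart, their intervals overlapped, and SPL3 was the nearest protein-coding gene to each. SPL4 (AT1G53160) had its only summit at position 19806297 of chromosome 1, 34 bp inside the lower-coordinate end, with 58 fragments and a fold of 3.14 (2.40 to 4.04). That pileup, 42.74, was higher than at 12.1% of all summits, and its fold was higher than at 40.7%.

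SPL2, SPL10 and SPL11, the subgroup with longer proteins, all held summits well inside the gene. SPL2 (AT5G43270) had neighbouring summits of 1 numbered peak at positions 17363036 and 17363192 of chromosome 5, 844 and 688 bp inside the higher-coordinate end. They had 110 and 114 fragments and folds of 5.89 (4.86 to 7.09) and 6.11 (5.05 to 7.32). A weaker summit at 17364079, 199 bp outside the same end, had 61 fragments and a fold of 3.30 (2.54 to 4.22). Its interval did not overlap those of the inside summits. No other protein-coding gene lay within 3000 bp of any of the 3, and the gap to the next gene on that side was 3946 bp. At SPL2 the fold was therefore higher within the gene than beside it, the opposite order to SPL5. However, SPL5 lies within AT3G15260, and its outer summit was nearer to that gene.

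SPL11 (AT1G27360) and SPL10 (AT1G27370) are neighbours on chromosome 1 with 1088 bp between them. SPL11 had its summit at position 9501491, 599 bp inside its lower-coordinate end, with 153 fragments and a fold of 7.11 (6.04 to 8.32). SPL10 had its summit at position 9507658, 884 bp inside its higher-coordinate end, with 178 fragments and a fold of 5.75 (4.94 to 6.65). Both summits thus lay in the outer parts of the pair, 6167 bp apart, and no summit was listed in the gap between the genes. By fold SPL11 was higher, with overlapping intervals, and by pileup SPL10 was higher, 131.17 against 112.74. The Poisson intervals of 178 and 153 fragments overlap too, so neither order of the genes was resolved. The control level was 22.0 at SPL10 and 15.0 at SPL11.

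**Figure D2:**
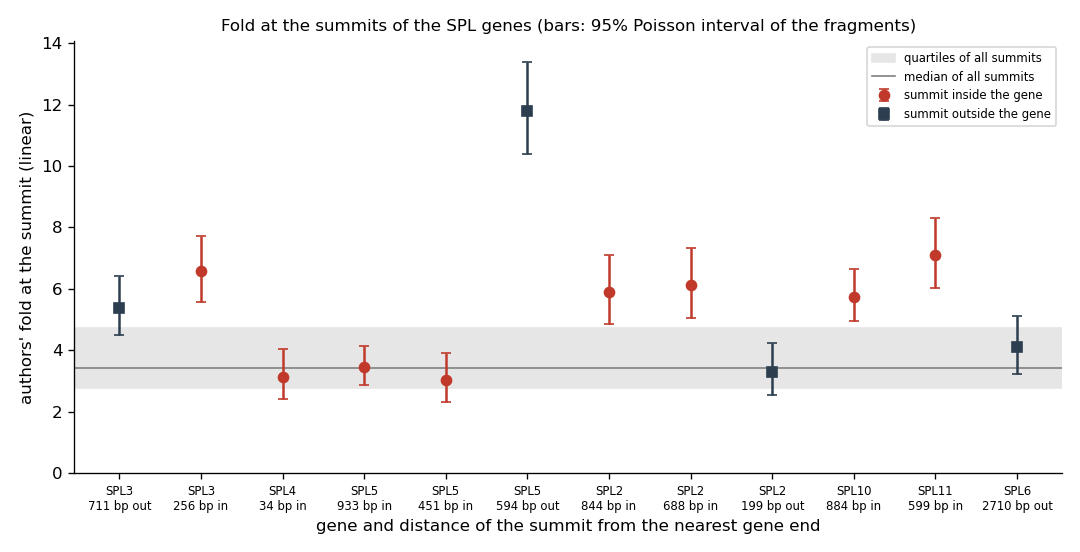
Fold at each of the 12 summits. The x axis gives the gene and the distance in bp from the nearest gene end, the y axis the authors' fold on a linear scale. Bars are 95% Poisson intervals of the fragments, red circles are summits inside the gene, dark squares are summits outside, the grey band spans the quartiles of all 7470 summits (2.76 to 4.72) and the line is their median (3.43). The outer SPL5 summit, at 11.8, stands above every other interval, and 7 of the 12 summits lie above the band.

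The listed summits of SPL6, SPL9 and SPL15 were either nearer to another gene or out of reach. SPL6 (AT1G69170) had 1 summit within 3000 bp, at position 26010078 of chromosome 1, 2710 bp outside its higher-coordinate end. It had 76 fragments and a fold of 4.09 (3.24 to 5.11). It lay 937 bp from CRC, the carpel and nectary regulator CRABS CLAW, whose annotated gene overlaps SPL6 by 19 bp. A stronger summit on the other side of SPL6, with a fold of 7.20 (6.12 to 8.42), lay just beyond the limit at 3165 bp and was 289 bp from AT1G69160. The remaining summits just outside 3000 bp were at 3159 bp from SPL4, with a fold of 4.48 (3.66 to 5.43), and at 3401 bp from SPL15. The summits inside SPL10 and SPL11 were 3635 and 3621 bp from the other gene of that pair. Just inside, the only summit more than 1000 bp from its gene was that of SPL6.

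SPL9 (AT2G42200) and SPL15 (AT3G57920), close relatives that act together in leaf initiation and phase change, had no summit by the rule. The summit nearest to SPL15 had a fold of 3.33 (2.69 to 4.06) and lay inside another gene, AT3G57940. SPL15 lies wholly within the annotated gene AT3G57910. The summit nearest to SPL9 was 16847 bp away, with a fold of 6.83, and 22.8% of protein-coding genes were farther than that from any summit. The median distance over all protein-coding genes was 6403 bp. A site weaker than the authors' threshold would not be in the list, so the absence of a summit does not show that TCP4 was absent there.

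**Figure D3:**
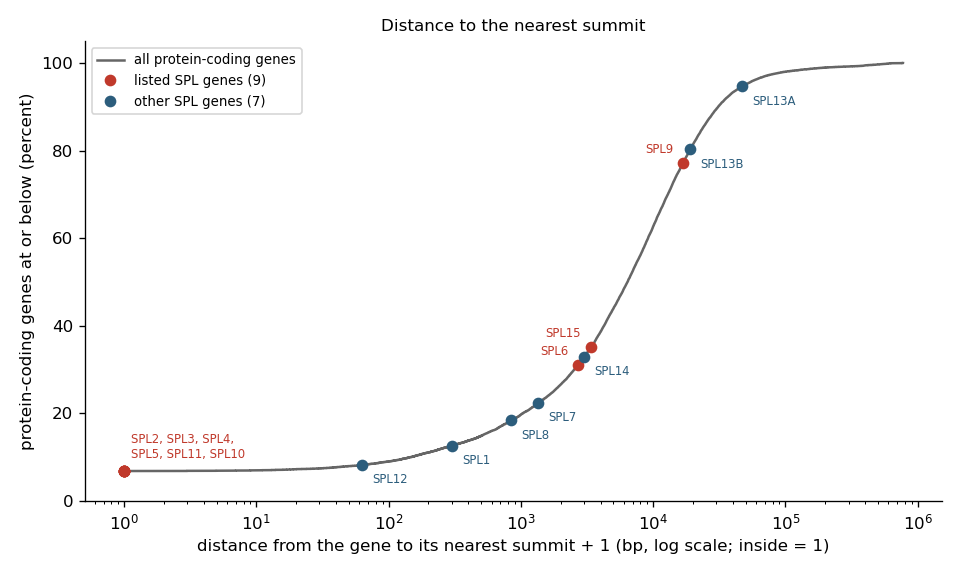
Distance to the nearest summit. The x axis is the distance from the gene to its nearest summit plus 1, in bp on a log scale, so that a summit inside the gene stands at 1, and the y axis is the percent of all protein-coding genes at or below that distance (line). Red points are the 9 listed SPL genes and blue points 7 other SPL genes. SPL2, SPL3, SPL4, SPL5, SPL10 and SPL11 share the point at 1, and SPL9 is the farthest of the listed genes at 16847 bp.

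Ordered by the highest fold within 3000 bp, the genes ran SPL5, SPL11, SPL3, SPL2, SPL10, SPL6 and SPL4. SPL5 stood apart from SPL11, the next in order, since their intervals did not overlap. However, its highest summit was nearer to AT3G15260. When a summit counted only for its nearest protein-coding gene, the highest fold at SPL5 was 3.45 and SPL6 had no summit. Each later gene overlapped its neighbour in the order, and in all 9 of the 21 pairs had overlapping intervals. SPL4 overlapped only SPL6. The median of these highest folds was 6.11, and that of all protein-coding genes with a summit within 3000 bp was 3.83. Over the 12 summits the median fold was 5.57 (range 3.04 to 11.8), and over all 7470 summits it was 3.43 (range 1.67 to 16.4). Of the 12, 9 were above that overall median. The −log10 q ran from 8.15 to 121 at the SPL summits with a median of 34.8, against a median of 14.2 over all. As the genes were chosen with these summits known, the folds and q-values describe them and are no evidence of stronger binding.

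The control level differed among the SPL summits. At 6 of the 12 (50.0%) it was at 12.9, the lowest value in the list, which 18.3% of all summits had. These were the 3 summits of SPL2, the summits of SPL4 and SPL6, and the SPL5 summit at position 5141872. The highest control levels were 23.0 at the SPL5 summit at 5141298 and 22.0 at SPL10. By pileup, SPL5 was highest, followed by SPL10, SPL11, SPL3, SPL2, SPL6 and SPL4. SPL10 thus stood above SPL11, SPL3 and SPL2, which exceeded it by fold with overlapping intervals. In pileup the Poisson interval of SPL10 overlapped those of SPL11 and SPL3 but not that of SPL2. The part that the control level plays in the order was not tested.

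**Figure D4:**
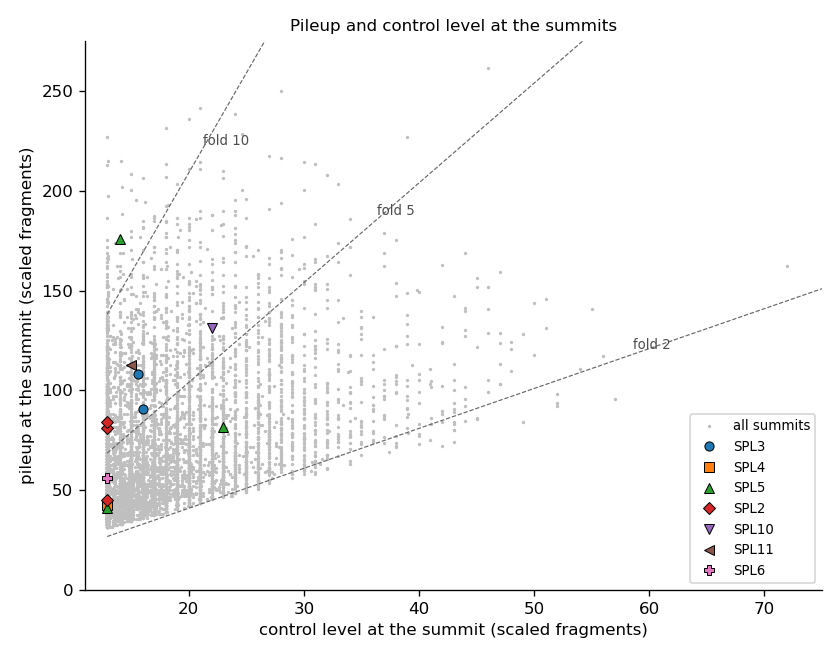
Pileup against control level at the summits. Both axes are in scaled fragments on linear scales, grey dots are all 7470 summits, coloured symbols the 12 SPL summits by gene, and dashed lines join values of equal fold. A column of 6 symbols stands at the left edge, at the control level of 12.9, where SPL4 (pileup 42.74) lies between the weakest SPL5 summit (41.27) and the outer SPL2 summit (44.95). The outer SPL5 summit stands highest, at a pileup of 176.12.

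The SPL genes outside the list were examined in the same way. SPL13A and SPL13B, which are also miR156 targets, had no summit within 3000 bp, and their nearest summits were 47263 and 19090 bp away. They are near-identical copies of each other, so reads from them may have been split or discarded in mapping, which was not tested. With them included, 7 of 11 miR156-targeted SPL genes had a summit within 3000 bp and 6 had a summit inside, where the shares of all protein-coding genes were 32.8% and 6.75%. SPL16 had no match in the annotation and was left out. Of the 5 matched SPL genes not targeted by miR156, SPL1 (5.49), SPL7 (3.65), SPL12 (2.65) and SPL8 (2.32) had summits within 3000 bp. The highest fold is in brackets, and SPL14 had its nearest summit at 3024 bp. The SPL7 summit was 1353 bp from SPL7 but 847 bp from AT5G18840. In none of these 5 was a summit inside the gene, which is near the 6.75% of all protein-coding genes. With 5 genes it is no evidence of a difference from the 9. SPL1, SPL7, SPL12 and SPL14, at 4217 to 4971 bp, are longer than any of the 9. The summits of SPL1 and SPL12 were 303 and 62 bp outside the gene.

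Upstream of the SPL genes, 4 of the 12 miR156 and miR157 genes (33.3%) had a summit within 3000 bp, against 25.8% of all annotated microRNA genes and 32.8% of protein-coding genes. MIR156C had 4 summits, the nearest at 455 bp with a fold of 2.52, and the highest fold, 8.49 (7.23 to 9.90), was 2852 bp from MIR156C and 574 bp from AT4G31880. MIR156G (3.70) and MIR156D (2.70) had their highest summits at 876 and 901 bp, and MIR156F (3.51) at 2705 bp. The summit with the highest fold of each of these 4 genes was nearer to a protein-coding gene. The other 8 genes had none, among them MIR156A, whose nearest summit was 3078 bp away. Among 9 genes reported elsewhere to regulate miR156 genes, 6 had a summit within 3000 bp (66.7%, against 32.8% of all protein-coding genes). None had a summit inside, which is near the 6.75% of all protein-coding genes that had one. The highest fold, 5.52, was 2392 bp from the Polycomb methyltransferase gene CLF and inside another gene, AT2G23360. It was 4.89 at 1056 bp from the sugar sensor gene HXK1 and 4.23 at 1066 bp from the MADS-box gene AGL18. At the B3-domain repressor gene VAL2 it was 4.68 at 1289 bp, and AT4G32020 was 1271 bp from that summit.

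Downstream, 3 of the 5 miR172 genes had a summit within 3000 bp, against 25.8% of all annotated microRNA genes. The fold was 8.12 (7.03 to 9.33) at 1674 bp from MIR172A and 1587 bp from AT2G28050, 7.03 (6.09 to 8.07) at 438 bp from MIR172E and 2.72 (2.04 to 3.56) at 527 bp from MIR172B. Of the 6 AP2-like repressors that miR172 targets, 5 had a summit (83.3%, against 32.8% of all protein-coding genes) and TOE2 had none. The highest folds were 9.23 at 2818 bp from AP2, 5.03 at SMZ, 3.66 at TOE1 and 3.45 at SNZ. The summits given for TOE1 and SNZ were nearer to another protein-coding gene, at 422 and 309 bp against 1361 and 439 bp. Among 11 genes listed here as downstream of SPL proteins, 6 had a summit within 3000 bp (54.5%, against the same 32.8%). FUL, a MADS-box gene of phase change and flowering, had 12.0 (10.5 to 13.7) at 2374 bp, and AP1, a floral meristem identity gene, 10.5 (9.17 to 12.0) at 149 bp. TCL1, a repressor of trichomes, had 7 summits within 3000 bp with the highest at 6.65, and that highest summit was nearest to its neighbour TCL2. A summit with a fold of 2.43 lay inside TCL1. BRC1, a TCP gene that restrains branching, had 6.35 at 2505 bp. SOC1, a MADS-box flowering gene, had 3 summits with a highest fold of 6.16 and the nearest at 157 bp, and AGL42 had 1 with a fold of 2.09. LFY, FD, FT, TRY and DFR had none.

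Transcription factor families under other microRNAs were set beside the SPL genes in the same way. Over 8 such families with 37 annotated genes, 20 (54.1%) had a summit within 3000 bp and 2 (5.41%) had a summit inside, against 32.8% and 6.75% of all protein-coding genes. The share within 3000 bp was 83.3% in the AP2-like list and 80.0% in the ARF list, above the 77.8% of the 9 SPL genes. The inside summits were at GRF8, a growth-regulating factor targeted by miR396, with a highest fold of 7.72, and at NAC1, a miR164 target. Among the miR319-targeted TCP genes 2 of 5 had a summit, TCP3 (9.86) and TCP4 itself (4.82). The TCP3 summit was 1108 bp outside the gene and 824 bp from AT1G53210, and the TCP4 summit was 795 bp outside the gene and inside AT3G15040. The 9 SPL genes, at 66.7%, had the highest share of genes with an inside summit of the 14 lists compared. The next was the NAC list with 1 of 5. The lists are not alike in gene length or size. Median lengths were 120 bp for the miR156 and miR157 genes and 124 bp for the miR172 genes, against 2301 bp for the 9 SPL genes. The miR171 list held 1 annotated gene. No test of these differences was made, since the SPL genes were picked with their summits known.

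**Figure D5:**
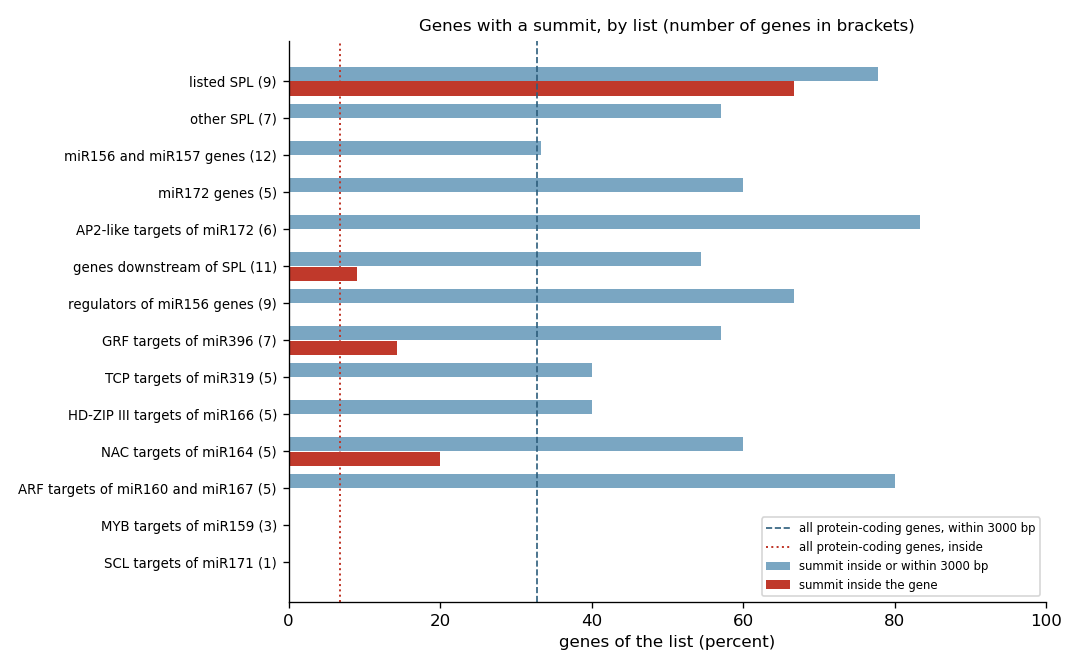
Share of genes with a summit in each list, in percent on a linear axis from 0. Blue bars count summits inside or within 3000 bp of the gene, red bars summits inside it, the number of genes stands in brackets, and the dashed and dotted lines are the shares of all protein-coding genes (32.8% and 6.75%). Most lists pass the dashed line, the miR159 and miR171 targets have no bar, and the longest red bar is that of the 9 SPL genes.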

How the data were processed

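Chromatin was measured in 4 libraries, a ChIP and an input of each genotype, and 1 peak list of mTCP4 against Col was analysed. Reads were processed with Bowtie 0.12.9 and MACS2 2.1.1 on build TAIR10, per the submitters' processing notes. No calling threshold and no use of the inputs is stated there. Per the file headers, the deposited pileup is a signal, the deposited fold a linear ratio, and p-values and q-values were deposited as −log10. These are the authors' values for each summit. Pileups were whole multiples of 0.737 within 0.01 at 100% of summits, taken as 1 fragment each. The control level was computed as (pileup + 1) / fold − 1, and Poisson p-values from it matched the deposited ones within 0.05 (log10) at 100% of summits. Library totals were not analysed here, and intervals cover counting error only.

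Genes came from a RefSeq table of TAIR10.1 without strand or sequence. None of its coordinates are printed. In 5 of 5 chromosomes the share of summits inside genes was lowest within 200 bp of no shift, when summits were moved by up to 1000 bp. The planned motif, promoter and protein comparisons were not run, as no sequence was used here. The members and the 14 lists were chosen with earlier results of these data known. Of 93 names, 3 had no match: SPL16, SCL6 and SCL22. SPL and GRF symbols shared with other genes were settled by full name. All 9 SPL genes, the SPL genes not listed, neighbours nearer to a summit, TCP4 and up to 4 genes with the highest fold in each other list were named by rule. Of the GRF and NAC lists only GRF8 and NAC1 were named, and of the ARF and HD-ZIP III lists no gene was. SOC1, AGL42, TOE2, MIR156A, LFY, FD, FT, TRY and DFR were named after their values were seen. Alternatives were windows of 1000 and 5000 bp, q of 1e-05 or lower, the upper 50% of summits by fold, 1 summit per numbered peak, nearest protein-coding genes only (ties kept) and the lowest control level. Gene assignment was tested on simulated data. Python 3.11.15, pandas 2.3.3, numpy 2.4.6, scipy 1.17.1 and matplotlib 3.10.9 were used.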

Additional observations from a re-analysis of the deposited data

How the results depend on the processing

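Of the 9 SPL genes, 6 to 8 had a summit in 6 of the 7 alternatives: SPL6 dropped out with windows of 1000 bp or nearest genes only, SPL4 when the lower 50% by fold was left out, and SPL15 came in with windows of 5000 bp. With only summits at the lowest control level, 4 genes (SPL2, SPL4, SPL5 and SPL6) and 6 distinct summits were left, by construction, and the share of all protein-coding genes fell to 6.9%. That share was 19.7% with windows of 1000 bp, 19.7% with the upper 50% of summits and 17.7% with nearest genes only. With nearest genes only, the highest fold at SPL5 was 3.45 in place of 11.8, since its outer summit is nearer to AT3G15260. With 5000 bp the highest fold was 4.48 at SPL4, 7.20 at SPL6 and 7.11 at SPL10, the last being the summit inside SPL11. No paired analysis was possible because each group had 1 library and only the authors' comparison was used.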
